A study of Mus musculus with 24 samples.

Results

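Glypicans and syndecans are the 2 main families of heparan sulfate proteoglycans that sit in the cell membrane, and their 10 mouse genes, Gpc1 to Gpc6 and Sdc1 to Sdc4, were followed here through the differentiation of mouse embryonic stem cells (mESCs). The 10 genes were taken by symbol from a table of raw read counts for 35591 genes, and all 10 were found in it. Counts came from poly(A) RNA sequencing of 24 libraries from 6 male mESC lines. The lines were sampled on 4 days of a protocol that leads to neuromesodermal progenitors (NMPs), the cells that give rise to spinal cord and trunk mesoderm. The comparison of genotypes asked whether losing the father's copy of Smchd1, whose product helps to keep genes silent, alters expression when the oocyte had normal SMCHD1.

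The 3 wt lines were Smchd1[fl/+], so they carried a floxed but working allele, and the 3 het lines were Smchd1[del/+]. All 6 lines came from separate blastocysts of a cross between a Castaneus mother with normal Smchd1 and a C57BL/6 father that bore a deleted and a floxed allele with MMTV-Cre, a Cre transgene under a mammary tumour virus promoter. Lines of both genotypes therefore shared this mixed background and may also have inherited the Cre. Day 0 cells were in DMEM with LIF, day 2 cells had been in N2B27 medium with bFGF since day 0, and day 2.5 and day 3 cells had also received the Wnt activator CHIR99021 from day 2. Each of the 8 groups held 3 libraries, 1 per line. The 4 libraries of a line were repeated measures, and equal line numbers in wt and het did not link lines.

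Glypicans are attached to the outer face of the membrane by a lipid (GPI) anchor, whereas syndecans cross the membrane and have a short tail inside the cell. Both carry long chains of heparan sulfate, a sulfated sugar polymer that binds FGF, Wnt, BMP and Hedgehog ligands and helps FGF to engage its receptors. Mouse ES cells that cannot make heparan sulfate are known to leave the pluripotent state poorly, and the protocol used here depended on added FGF and on Wnt signalling.

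Positions were given on GRCm38 and were identical in the GENCODE vM21 annotation for all 10 genes. Gpc3 (X, 52272426 to 52613950, minus strand) and Gpc4 (X, 52053021 to 52165252, minus strand) were neighbours with a gap of 107 kb. Male cells have an X chromosome from the mother only, so reads of both genes came from the Castaneus chromosome in all 6 lines. Gpc5 (14, 115092215 to 116525179) and Gpc6 (14, 116925315 to 117976544), both on the plus strand, were neighbours with a gap of 400.1 kb. The other members lay apart, with Gpc1 on chromosome 1 (92831645 to 92860779), Gpc2 on 5 (138273655 to 138280005), Sdc1 on 12 (8771323 to 8793715), Sdc2 on 15 (32920723 to 33034935), Sdc3 on 4 (130792537 to 130826319) and Sdc4 on 2 (164424247 to 164443887).

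RefSeq promoter sequences, from 250 bases before to 50 bases after the annotated RefSeq start on GRCm38.p6, were at hand for 7 of the 10 genes. Those of the neighbours Gpc3 and Gpc4 are printed because the pair followed different courses, and that of Gpc5 because its transcript was nearly undetected. They were read at chrX:52613925-52614224 (minus strand), chrX:52164874-52165173 (minus strand) and chr14:115091965-115092264 (plus strand), and are written 5′ to 3′ along the gene, with capitals marking matches to the GC box GGGCGG or to the GATA motif AGATAA on either strand.
Gpc3: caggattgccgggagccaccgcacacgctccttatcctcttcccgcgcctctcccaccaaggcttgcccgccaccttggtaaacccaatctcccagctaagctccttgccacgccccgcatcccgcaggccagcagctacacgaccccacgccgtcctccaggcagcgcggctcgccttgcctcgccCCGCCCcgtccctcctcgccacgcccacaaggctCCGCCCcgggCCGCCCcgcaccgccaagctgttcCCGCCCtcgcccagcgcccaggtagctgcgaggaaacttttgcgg
Gpc4: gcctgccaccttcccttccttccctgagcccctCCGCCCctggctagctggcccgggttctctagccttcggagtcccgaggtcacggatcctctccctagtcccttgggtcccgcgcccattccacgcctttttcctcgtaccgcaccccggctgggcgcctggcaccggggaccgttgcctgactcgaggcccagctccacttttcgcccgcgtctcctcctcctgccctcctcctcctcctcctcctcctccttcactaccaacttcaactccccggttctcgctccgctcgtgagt
Gpc5: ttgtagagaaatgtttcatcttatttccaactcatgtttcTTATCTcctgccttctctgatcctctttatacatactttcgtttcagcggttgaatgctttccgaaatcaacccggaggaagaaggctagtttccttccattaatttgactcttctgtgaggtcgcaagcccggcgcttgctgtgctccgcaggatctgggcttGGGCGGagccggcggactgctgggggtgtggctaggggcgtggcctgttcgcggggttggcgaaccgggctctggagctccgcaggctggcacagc

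The Gpc3 window held 4 GC boxes, 30 CpG dinucleotides and 70.7% G and C. That of Gpc4 held 1 GC box, 22 CpG and 66.7% G and C. By the GENCODE positions the windows of Gpc4 and Sdc4 lay wholly inside the gene, downstream of its start, whereas that of Gpc3 spanned the start. In the Gpc5 window, 1 GC box, 17 CpG and 54.7% G and C were counted, beside the only GATA match among the 7. At least 1 GC box was present in all 7 member promoters, against 35.7% of 32851 promoters of the same length, whose median was 7 CpG and 52.7% G and C. The GATA motif was present in 11.2% of all promoters. A TCF/LEF motif, CTTTGA, was present in 16.0% of all promoters and in 0 of the 7 member promoters.

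Library totals ranged from 7.10 to 20.8 M counts (M, 1e6) with a median of 17.9 M, and the smallest library was that of wt line 2 at day 2.5. Levels are given as CPM, the counts of a gene per 1e6 counts of its library, scaled between libraries with edgeR's TMM factors. Groups were compared with the edgeR quasi-likelihood test, and a gene was called where the p, adjusted over all genes tested by the Benjamini-Hochberg method, was under 0.05. Since the 3 lines of a group came from separate blastocysts, these p-values measure the spread between lines. Smchd1 checked the labels, since its het mean was 54.7% to 66.3% of the wt mean over the 4 days, with no overlap between genotypes on any day. The summed level of 6 naive pluripotency genes in wt fell from 927 ± 35.4 CPM at day 0 to 82.2 ± 11.6 CPM at day 2, and that of 6 NMP genes went from 4.01 ± 2.07 CPM at day 2 up to 969 ± 324 CPM at day 2.5 (SD, n = 3). That of 4 epiblast genes, the list for day 2, was already 1049 ± 36.2 CPM at day 0 and 1274 ± 73.7 CPM at day 2, a smaller change than in the other sums. Dnmt3b alone averaged 939 and 1142 CPM of these. The summed level of 15 markers of primitive, parietal and visceral endoderm, a lineage outside the protocol's aim, ranged over the wt lines from 2324 to 3882 CPM at day 0 and from 7536 to 15400 CPM at day 2. Most of its wt mean of 11232 CPM at day 2 came from the matrix genes Lama1, Col4a1, Lamb1, Sparc and Col4a2 (2677, 2656, 2100, 1496 and 1188 CPM). Cubn was at 686 CPM, Dab2 at 248 CPM and the transcription factor gene Gata4 at 66.3 CPM.

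Because Gpc2 shares 55.6% of its exon bases with Gm43720, a same-strand gene that drew 59 to 262 counts, its level is uncertain. Ankmy1, on the other strand, covers 18.9% of the exon bases of Gpc1 and drew 25 to 104 counts, and the antisense gene Gm26716 covers 6.93% of those of Sdc3 with 0 to 39 counts. Whether counting used the strand is not given, so reads of these partners could not be separated.

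Between day 0 and day 2, 6 of the 9 members tested were called in wt, where 44.3% of 15521 genes were called. Gpc2, Gpc3, Gpc6 and Sdc2 rose (22.4% of all genes did) and Gpc4 and Sdc4 fell (21.9%). In het, 7 of 9 were called, against 56.1% of 15303 genes (28.0% higher, 28.1% lower), with Gpc1, Gpc2, Gpc3, Gpc6, Sdc1 and Sdc2 higher and Sdc4 lower. The lines of both days did not overlap for 7 members in wt and 8 in het, where this held for 54.8% and 63.3% of all genes. The median log2 change was 1.22 over the 5 glypicans tested in wt and -0.10 over the 4 syndecans, beside 0.02 over all genes. In het these medians were 1.14 and -0.28, beside 0.01. Both glypican medians were the value of Gpc2, whose level is uncertain. Over this step the endoderm markers also rose, with 10 of the 13 tested called in each genotype, and their part in the result was not tested.

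Wnt was activated at day 2, and at the next sampling (day 2.5) 2 of 9 members were called in wt, both lower (Gpc2 and Gpc3), against 29.1% of 15540 genes (14.6% higher, 14.5% lower). In het, 4 of 9 were called, against 44.7% of 15577 genes (21.8% higher, 22.9% lower), with Gpc6 and Sdc1 higher and Gpc3 and Sdc4 lower. No overlap between the days was seen for 4 members in wt and 5 in het, against 44.0% and 54.3% of all genes. In wt 0 of 9 were called without wt line 2 and 1 without wt line 3. Calls over all genes fell in these fits too, from 4519 to 2249 and 2545. In het 0 of 9 were called without het line 1, 2 without het line 2 and 1 without het line 3. Over all genes these het fits called 4855, 5308 and 6327, against 6963 with all lines.

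Between day 2.5 and day 3, 3 members were called in wt (Gpc3, Gpc6 and Sdc2), against 19.1% of 15292 genes (8.99% higher, 10.1% lower), and 3 in het (Gpc3, Sdc2 and Sdc4), against 29.8% of 15801 genes (13.8% higher, 16.0% lower). All of these calls were higher at day 3. The days did not overlap for 4 members in wt and 3 in het, against 38.9% and 44.1% of all genes. Without wt line 2, 0 of 9 members and 29 genes in all were called in wt, where 2923 were called with it, and without wt line 3 the counts were 1 and 988. Without het line 2 or het line 3, the het count was 2, where 2974 and 2386 genes in all were called, against 4710 with all lines. Both genotypes had a median log2 change of 0.45 over the 4 syndecans. That of the 5 glypicans was 0.46 in wt (the value of Gpc2) and 0.31 in het, beside 0.00 and -0.02 over all genes.

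**Figure D1:**
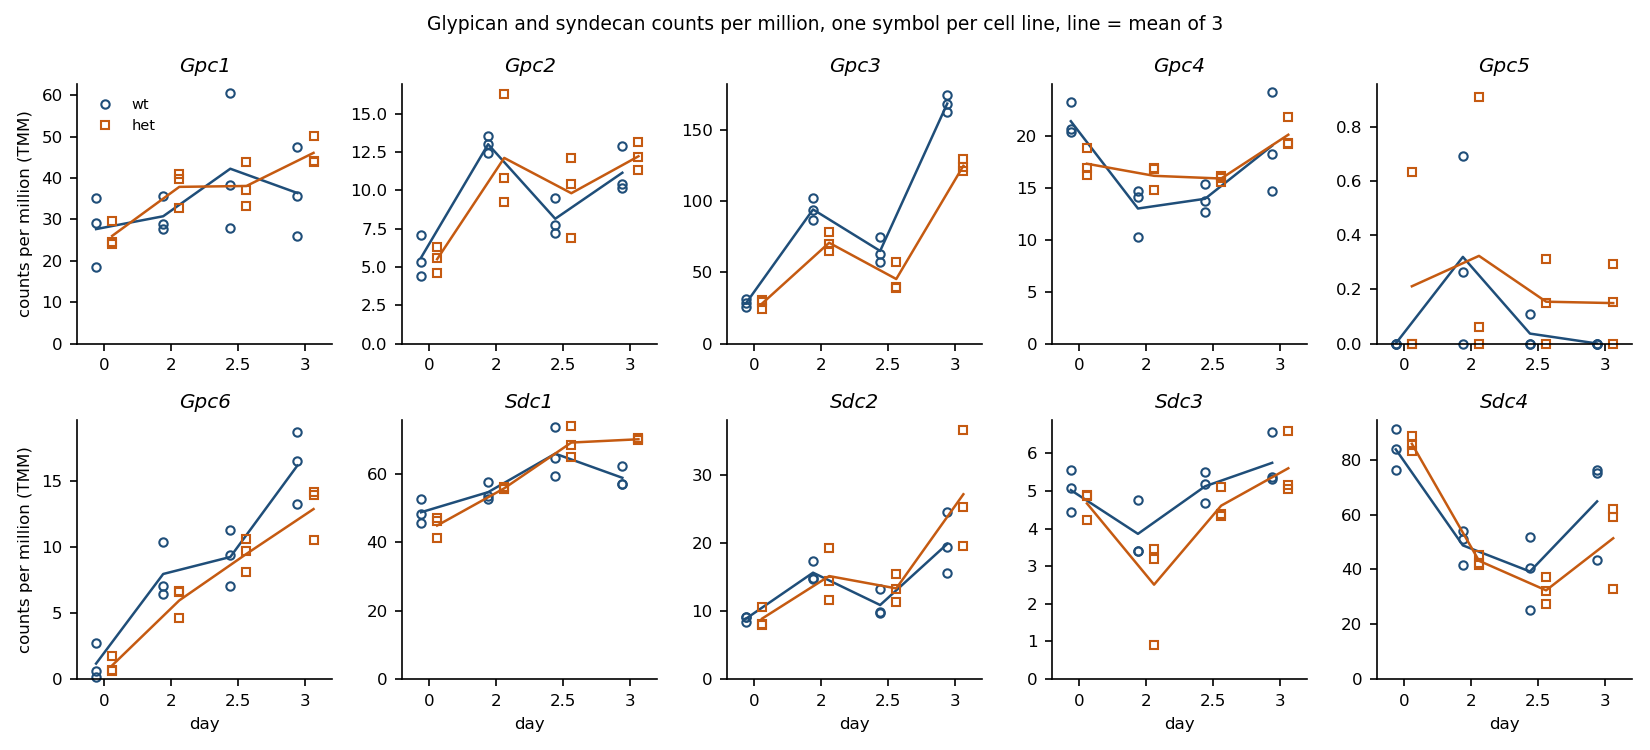
CPM (TMM-scaled, linear axis from 0, a separate scale per gene) of the 10 genes against day, with circles for the 3 wt lines, squares for the 3 het lines and a line through each genotype's means. Gpc3 rises, dips at day 2.5 and reaches 163 to 175 CPM in wt at day 3, Gpc6 climbs at each step from about 1 CPM, Sdc4 falls from 83.8 CPM in wt before a partial return, and Gpc5 never exceeds 0.913 CPM.

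Gpc3, the glypican whose loss causes overgrowth and which binds Hedgehog and Wnt ligands, had the widest range among the well-measured members. In wt lines 1, 2 and 3 it stood at 28.2, 25.5 and 31.1 CPM at day 0, 93.9, 86.7 and 103 CPM at day 2, 57.2, 63.4 and 74.9 CPM at day 2.5, and 163, 175 and 169 CPM at day 3. In the het lines it stood at 29.5, 30.8 and 24.1 CPM at day 0, 69.8, 78.2 and 64.9 CPM at day 2, 39.1, 57.3 and 39.8 CPM at day 2.5, and 129.8, 122 and 124 CPM at day 3. Each of the 6 lines thus went up, down and up again, and no day overlapped the next within a genotype.

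For Gpc3 the first step was a log2 change of 1.75 ± 0.13 (SE) in wt (adjusted p = 2.1e-07) and 1.34 ± 0.12 in het (adjusted p = 1.1e-07). After Wnt activation it fell, with log2 changes of -0.54 ± 0.14 in wt (adjusted p = 0.010) and -0.66 ± 0.14 in het (adjusted p = 0.0019). The last step was 1.38 ± 0.12 in wt (adjusted p = 0.00025) and 1.44 ± 0.14 in het (adjusted p = 6.7e-05). The fall was not called without wt line 2 (-0.58, adjusted p = 0.069) or without het line 1 (-0.55, adjusted p = 0.052), and the last rise in wt was not called without wt line 2 (1.32, adjusted p = 0.056).

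Gpc6, a glypican known for its role in long-bone growth, had the largest ratio of day means within a genotype among the 9 members tested, at 13.8-fold in wt and 12.4-fold in het between day 0 and day 3. The ratio rested on few counts at day 0, and was 41.3-fold without wt line 3 and 18.6-fold without het line 2. Its levels in the wt lines were 0.125, 0.649 and 2.74 CPM at day 0, 7.004, 6.44 and 10.4 CPM at day 2, 9.40, 7.04 and 11.2 CPM at day 2.5, and 13.3, 18.7 and 16.5 CPM at day 3. The het lines had 0.614, 1.78 and 0.715 CPM at day 0, 6.66, 6.56 and 4.63 CPM at day 2, 10.6, 8.09 and 9.69 CPM at day 2.5, and 14.2, 13.9 and 10.49 CPM at day 3. At day 0 the gene rested on 2 to 38 counts per library, and wt line 3 was the highest there. It rose by 2.80 ± 0.65 on the log2 scale in wt by day 2 (adjusted p = 0.0030) and by 2.53 ± 0.44 in het (adjusted p = 0.00014). With a line left out the log2 change was 2.36 to 4.07 in wt, the highest without wt line 3, and 2.16 to 3.08 in het, and it was called each time.

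After Wnt activation Gpc6 changed by a log2 of 0.22 ± 0.28 in wt (adjusted p = 0.59) and 0.65 ± 0.23 in het (adjusted p = 0.036), a het call that was lost without any of the 3 lines (0.49 to 0.82, adjusted p = 0.053 to 0.17). By day 3 it rose by a log2 of 0.79 ± 0.23 in wt (adjusted p = 0.033), which was not called without wt line 2 (0.52, adjusted p = 0.29) or wt line 3 (0.95, adjusted p = 0.087). In a fit of all 24 libraries neither call was made (0.67, adjusted p = 0.19 for the het one and 0.79, adjusted p = 0.14 for the wt one). The last het step was 0.42 ± 0.18 (adjusted p = 0.095).

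Gpc2, a glypican of developing neurons, read from few counts and shared sequence as above, rose early. Its wt values were 4.38, 7.08 and 5.34 CPM at day 0, 13.0, 13.6 and 12.4 CPM at day 2, 9.51, 7.73 and 7.18 CPM at day 2.5, and 10.1, 12.9 and 10.4 CPM at day 3. In het they were 6.31, 5.59 and 4.61 CPM at day 0, 10.8, 9.24 and 16.3 CPM at day 2, 12.1, 10.4 and 6.87 CPM at day 2.5, and 11.4, 13.1 and 12.2 CPM at day 3. Day 0 lay below day 2 in all 6 lines. That rise was a log2 of 1.22 ± 0.26 in wt (adjusted p = 0.0015) and 1.14 ± 0.24 in het (adjusted p = 0.00092). The fall at day 2.5 was called in wt (-0.68 ± 0.23, adjusted p = 0.039) but not in het (-0.32 ± 0.26, adjusted p = 0.34). It was lost without wt line 2 (-0.62, adjusted p = 0.20) or wt line 3 (-0.63, adjusted p = 0.19), and with no filter beyond 1 count (-0.69, adjusted p = 0.053). Between day 2.5 and day 3, the log2 change was 0.46 ± 0.22 in wt (adjusted p = 0.17) and 0.29 ± 0.21 in het (adjusted p = 0.32).

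Gpc4, the X-linked neighbour of Gpc3 and a glypican of neural progenitors, took another course. In wt it measured 20.6, 23.2 and 20.4 CPM at day 0, 14.6, 14.1 and 10.2 CPM at day 2, 15.4, 12.7 and 13.7 CPM at day 2.5, and 24.2, 18.2 and 14.7 CPM at day 3. The het lines measured 16.2, 18.8 and 16.9 CPM at day 0, 14.8, 16.9 and 16.8 CPM at day 2, 15.9, 15.6 and 16.2 CPM at day 2.5, and 21.8, 19.3 and 19.2 CPM at day 3. Day 0 and day 2 did not overlap in wt and overlapped in het. The first step was called in wt, where Gpc4 fell by 0.71 ± 0.20 on the log2 scale (adjusted p = 0.0086), while the het change was -0.09 ± 0.15 (adjusted p = 0.63). Without wt line 2 the fall had an adjusted p of 0.052 and without wt line 3 of 0.086. Later steps were not called, with log2 changes at the last step of 0.45 ± 0.21 in wt (adjusted p = 0.15) and 0.31 ± 0.12 in het (adjusted p = 0.072).

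Gpc1, a widely expressed glypican, spread widely among the wt lines. Its wt values were 35.2, 29.2 and 18.6 CPM at day 0, 27.7, 35.7 and 29.0 CPM at day 2, 60.5, 38.2 and 28.0 CPM at day 2.5, and 47.5, 26.1 and 35.6 CPM at day 3. The het values were 29.5, 24.1 and 24.5 CPM at day 0, 39.9, 40.9 and 32.9 CPM at day 2, 37.1, 33.2 and 44.0 CPM at day 2.5, and 50.2, 44.0 and 44.1 CPM at day 3. All successive days overlapped in wt, whereas in het day 2 lay above day 0. The het rise was a log2 of 0.55 ± 0.13 (adjusted p = 0.0020), the only step called for this gene, and in a fit of all 24 libraries together its adjusted p was 0.051. The wt change over that step was 0.16 ± 0.21 (adjusted p = 0.58).

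Gpc5 was nearly undetected. It had 0 counts in 14 of the 24 libraries, over 3 counts in 6 and at most 14 counts, or 0.913 CPM, in het line 3 at day 2. A count of 0 allows up to 3 counts per library, so levels below that were not detectable at this depth. It did not pass the filter on low counts in any comparison of 2 groups. No fold change is given for it.

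Sdc4, a syndecan of focal adhesions, was the most abundant member by count at day 0 and moved in the opposite sense to Gpc3 over the first step. Its wt values were 76.2, 91.2 and 84.1 CPM at day 0, 53.9, 41.5 and 51.0 CPM at day 2, 25.4, 40.6 and 51.8 CPM at day 2.5, and 43.3, 75.03 and 76.2 CPM at day 3. The het values were 88.8, 85.4 and 83.3 CPM at day 0, 41.7, 45.4 and 42.5 CPM at day 2, 32.2, 37.4 and 27.5 CPM at day 2.5, and 32.7, 59.3 and 62.2 CPM at day 3. Line 1 of each genotype was the lowest of its group at day 3, at 43.3 CPM in wt and 32.7 CPM in het. These 2 libraries also had the lowest summed endoderm markers of their group (5227 and 3993 CPM) and the highest summed NMP markers (808 CPM against 507 and 582 in wt, and 904 CPM against 475 and 623 in het). At day 2.5 and day 3 the order of the lines of a genotype by Sdc4 was that by the endoderm sum, but at day 0 in both genotypes and at day 2 in wt it was not, and Sdc4 fell by day 2 while the endoderm sum rose. The part of the endoderm markers in the Sdc4 values was not tested. By day 2 Sdc4 fell by 0.77 ± 0.13 on the log2 scale in wt (adjusted p = 0.00032) and by 0.98 ± 0.09 in het (adjusted p = 1.5e-07).

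The further fall of Sdc4 at day 2.5 was called in het (-0.43 ± 0.13, adjusted p = 0.015) but not in wt (-0.32 ± 0.22, adjusted p = 0.30). It was lost without het line 1 (adjusted p = 0.10) or het line 3 (adjusted p = 0.069) and in a fit of all 24 libraries (adjusted p = 0.14). At the last step Sdc4 rose by a log2 of 0.64 ± 0.21 in het (adjusted p = 0.035), though not without het line 2 (0.65, adjusted p = 0.093) or het line 3 (0.39, adjusted p = 0.31). The wt change was 0.73 ± 0.27 (adjusted p = 0.081). With the line number as a block, which compares each line with itself, the wt rise was called (0.74, adjusted p = 0.00028). It was also called by DESeq2 (adjusted p = 0.028), with no filter beyond 1 count (adjusted p = 0.0024), in a fit of all 24 libraries (adjusted p = 0.015) and without wt line 1 (adjusted p = 0.0020).

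Sdc1, the epithelial syndecan, held a high level with small shifts. In wt it stood at 45.5, 48.3 and 52.6 CPM at day 0, 52.8, 57.7 and 53.6 CPM at day 2, 73.8, 59.5 and 64.6 CPM at day 2.5, and 62.5, 57.2 and 57.0 CPM at day 3. In het it stood at 47.1, 46.3 and 41.4 CPM at day 0, 55.7, 56.1 and 55.7 CPM at day 2, 64.9, 68.6 and 74.2 CPM at day 2.5, and 70.2, 69.8 and 70.5 CPM at day 3. Days 0, 2 and 2.5 did not overlap within either genotype. The rises were called in het, at a log2 of 0.32 ± 0.10 by day 2 (adjusted p = 0.0094) and 0.29 ± 0.09 by day 2.5 (adjusted p = 0.021). In wt they were 0.17 ± 0.12 (adjusted p = 0.29) and 0.27 ± 0.13 (adjusted p = 0.15), of which the second was called in a fit of all 24 libraries (0.27, adjusted p = 0.029). The first het call was lost without het line 3 (adjusted p = 0.058), and the second without any of the 3 lines (adjusted p = 0.051 to 0.097).

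Sdc2, a syndecan of mesenchymal cells, rose by day 2 and again by day 3. The wt lines had 8.38, 9.14 and 9.09 CPM at day 0, 14.8, 17.4 and 14.7 CPM at day 2, 13.2, 9.80 and 9.66 CPM at day 2.5, and 24.6, 19.4 and 15.7 CPM at day 3. The het lines had 7.92, 8.07 and 10.7 CPM at day 0, 19.3, 11.7 and 14.4 CPM at day 2, 13.2, 11.3 and 15.4 CPM at day 2.5, and 36.6, 19.6 and 25.3 CPM at day 3. Day 0 lay below day 2, and day 2.5 below day 3, in both genotypes without overlap. The first rise was a log2 of 0.82 ± 0.21 in wt (adjusted p = 0.0050) and 0.78 ± 0.21 in het (adjusted p = 0.0057). The last was 0.87 ± 0.22 in wt (adjusted p = 0.020) and 1.00 ± 0.21 in het (adjusted p = 0.0041). Without wt line 2 the adjusted p of the wt rises was 0.052 and 0.18, without wt line 3 it was 0.057 and 0.063, and without het line 1 that of the first het rise was 0.15 (log2 of 0.48). The dip in wt at day 2.5 (-0.52 ± 0.22, adjusted p = 0.090) was called without wt line 1 only (-0.72, adjusted p = 0.044).

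Sdc3, the neural syndecan, was low throughout, with 15 to 129 counts per library. Its wt values were 4.44, 5.07 and 5.56 CPM at day 0, 3.403, 3.41 and 4.77 CPM at day 2, 5.50, 4.69 and 5.18 CPM at day 2.5, and 5.33, 6.56 and 5.36 CPM at day 3. The het values were 4.24, 4.89 and 4.87 CPM at day 0, 3.18, 0.894 and 3.46 CPM at day 2, 5.11, 4.33 and 4.39 CPM at day 2.5, and 6.60, 5.04 and 5.17 CPM at day 3. The lowest of all 24 libraries was het line 2 at day 2, with 15 counts. No step was called, and the widest were the het ones into day 2 (-0.89 ± 0.43, adjusted p = 0.090) and out of it (0.86 ± 0.43, adjusted p = 0.12). The first of these was called with no filter beyond 1 count (adjusted p = 0.048) and in a fit of all 24 libraries (adjusted p = 0.024), and the second in the latter fit (adjusted p = 0.031).

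**Figure D2:**
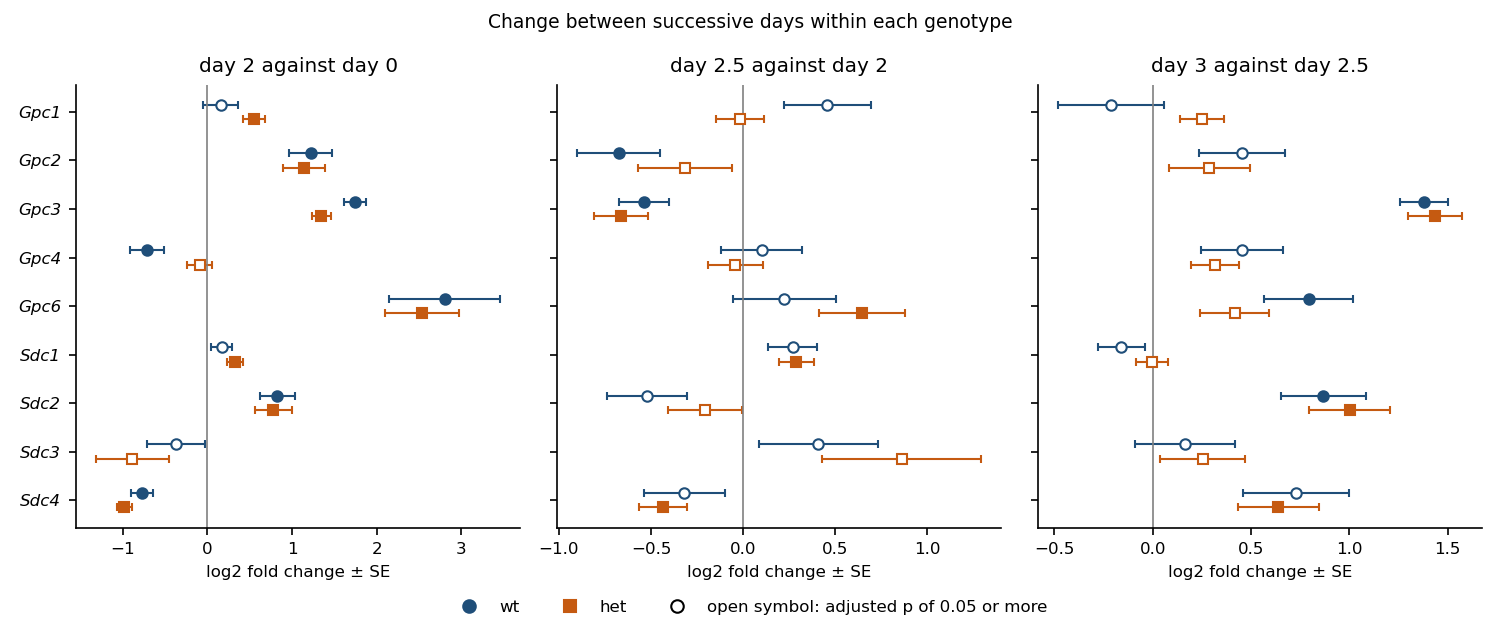
Log2 fold changes between successive days for the 9 members tested, with bars of 1 SE, wt as circles and het as squares, filled where the adjusted p was under 0.05 (each panel has its own axis). Gpc3 is filled in both genotypes at all 3 steps, at 1.75 and 1.34, then -0.54 and -0.66, then 1.38 and 1.44.

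To compare levels between genes, CPM were divided by the length of annotated exon in kilobases. At day 0 in wt the order was Sdc4 (32.9 CPM per kb), Sdc1 (12.8), Gpc3 (10.51), Gpc4 (8.08), Gpc1 (5.36), Sdc2 (2.52), Gpc2 (1.31), Sdc3 (0.839), Gpc6 (0.182) and Gpc5 at 0 counts, and no neighbours down to Gpc6 overlapped among the lines. Gpc6 had 2 counts in wt line 1, under the 3 that a count of 0 allows, so it could not be told apart from Gpc5 there. In het at day 0 the order of the genes was the same, with overlap of the lines between Sdc1 (11.8) and Gpc3 (10.4) and between Gpc6 (0.161) and Gpc5 (0.0476). At day 3 Gpc3 led in both genotypes, with 62.8 ± 2.17 CPM per kb in wt and 46.5 ± 1.59 in het (SD, n = 3). Sdc4 followed with 25.5 in wt and 20.2 in het, and Sdc1 with 15.5 and 18.4. Sdc4 and Sdc1 overlapped in het but not in wt.

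Between these days the lead passed to Gpc3 at day 2, with 35.1 CPM per kb in wt and 26.4 in het, above Sdc4 (19.2 and 17.0) without overlap. At day 2.5 in wt, Gpc3 (24.2) was still above Sdc1 (17.3), whose lines overlapped those of Sdc4 (15.4). In het at that day Sdc1 (18.2), Gpc3 (16.9) and Sdc4 (12.7) came in this order and each overlapped the next. With the longest transcript in place of all exons, Sdc1 ranked above Sdc4 in het at day 2 and day 3, where Sdc4 had ranked above Sdc1. The other changes of rank in the 8 groups were between Gpc1 and Gpc4 and between Gpc2 and Gpc6.

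The summed level of the 10 genes per kb was 74.5 ± 3.26 CPM in wt and 72.3 ± 3.20 in het at day 0, and 129.7 ± 4.65 and 115 ± 1.93 at day 3 (SD, n = 3). Glypicans made up 25.4 of the 74.5 CPM per kb in wt at day 0 and 82.2 of the 129.7 at day 3. Syndecans summed to 49.1 and 47.5 CPM per kb on these days. Within the glypicans, Gpc3 took 41.4% at day 0 and 76.5% at day 3 in wt, and 44.3% and 68.5% in het. Gpc4 took 31.7% and 8.72% in wt. Within the syndecans the share of Sdc4 in wt was 67.0%, 49.5%, 41.5% and 52.8% on the 4 days in turn, as that of Sdc1 was 26.1%, 37.3%, 47.6% and 33.0%. Shares within a sum are not independent of each other and were not tested.

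**Figure D3:**
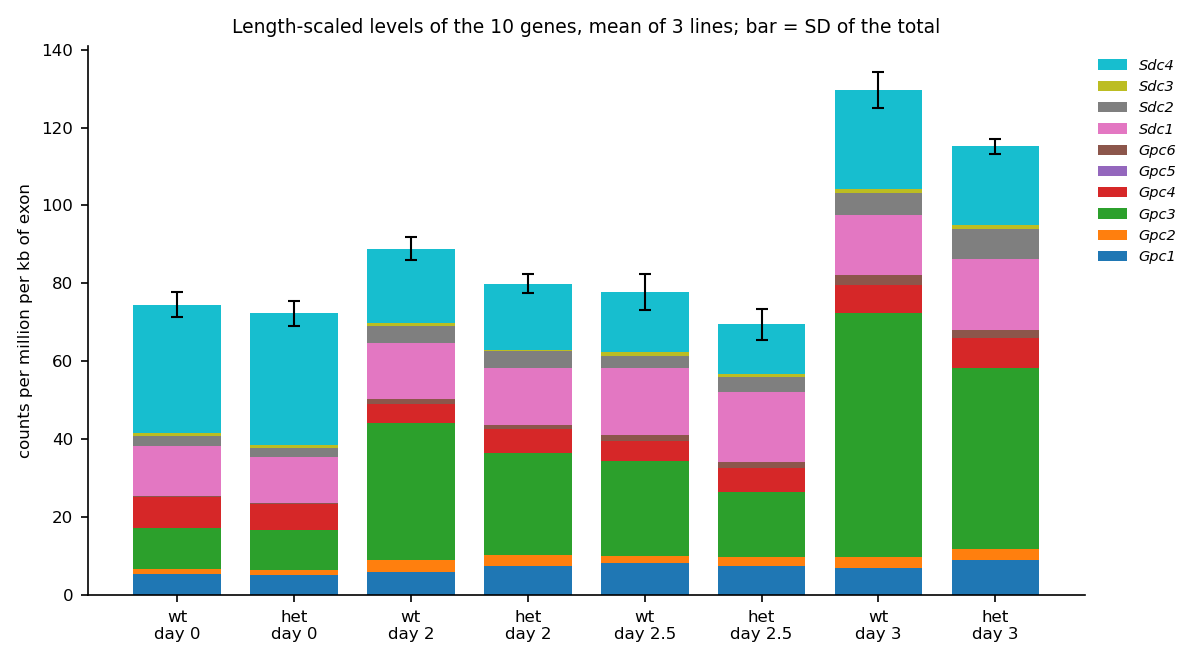
Stacked group means in CPM per kb of exon (linear axis from 0) for the 10 genes in the 8 groups, with error bars of 1 SD of the total over 3 lines. The Gpc3 block grows from 10.51 in wt at day 0 to 62.8 at day 3 while the Sdc4 block is 32.9 and 25.5 on these days.

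Between genotypes, no member was called on any day. Of the 9 tested, 0 were called at day 0, where 0% of 15108 genes were called, 0 at day 2 (0.551% of 15414), 0 at day 2.5 (0% of 15588) and 0 at day 3 (0.0064% of 15686, which is Smchd1 itself). At an unadjusted p under 0.05, edgeR gave 1 member at day 0 (Gpc4), 1 at day 2 and 1 at day 2.5 (Gpc3 on both) and 2 at day 3 (Gpc3 and Sdc1), where 10.9%, 10.2%, 5.27% and 9.13% of all genes passed on the 4 days in turn, so that 1 of 9 was near the background. DESeq2 called 0 members at day 0 and day 2.5, and Gpc3 at day 2 and day 3, where it called 0.556%, 1.52%, 0.0192% and 0.740% of all genes on the 4 days. The genotypes' lines did not overlap for 1, 2, 1 and 2 members on the 4 days, where this held for 16.7%, 16.0%, 11.4% and 13.9% of all genes tested, so the share of members was near the background on each day. The median log2 difference over the 9 members was -0.11, -0.11, 0.02 and 0.06 on the 4 days in turn, beside -0.00, 0.00, -0.01 and -0.00 over all genes.

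Gpc3 was the member with the smallest p at day 2, day 2.5 and day 3. Its het mean was 99.4% of the wt mean at day 0 and 75.2%, 69.7% and 74.1% on the later days. From day 2 on, the het lines were lower (64.9 to 78.2 against 86.7 to 103 CPM at day 2, and 122 to 129.8 against 163 to 175 CPM at day 3), and at day 2.5 het line 2 (57.3 CPM) and wt line 1 (57.2 CPM) met. The log2 difference was -0.02 ± 0.13 at day 0 (adjusted p = 0.96), -0.42 ± 0.11 at day 2 (adjusted p = 0.13), -0.52 ± 0.17 at day 2.5 (adjusted p = 0.91) and -0.44 ± 0.08 at day 3 (adjusted p = 0.22). Over the alternatives, DESeq2 called it at day 2 (adjusted p = 0.035) and day 3 (adjusted p = 0.0011), as did edgeR with no filter beyond 1 count (adjusted p = 0.026 and 0.0053) and edgeR at day 3 without wt line 1 (-0.47, adjusted p = 0.042). The other alternatives did not call it. The days are repeated measures of the same 6 lines and do not count as separate evidence.

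The summed level of the endoderm markers had a lower het mean on each day, though the lines overlapped at day 2.5 and day 3. The het mean as a share of the wt mean was 59.3%, 50.2%, 72.8% and 66.1% on the 4 days in turn. Of the 15 markers, 13 had a lower het mean at day 0 and 15 on each later day, and 8, 12, 2 and 2 did not overlap, which at day 2.5 and day 3 is near the share of all genes (16.7%, 16.0%, 11.4% and 13.9% on the 4 days). At day 2 the sums were 7536, 10762 and 15400 CPM in the wt lines and 4567, 6353 and 6013 CPM in the het lines, and 11 of the 13 markers tested were called lower, where 0.551% of all genes were called. That count was 2 without wt line 3, 0 without het line 1, 1 without het line 2 and 0 without het line 3. In these fits 8, 1, 3 and 0 genes in all were called, against 85 with every line. It was 12 without wt line 1 and 8 without wt line 2, where 211 and 137 genes in all were called. In a fit of all 24 libraries it was 1, with DESeq2 8 and with no filter beyond 1 count 12. It was also 12 with lines of equal number, which are not linked, as a block. As first tested, the count was 0 of 13 at day 0 and at day 2.5, where 0% of all genes were called. At day 0 it was 9 without wt line 1 (35 genes in all), 4 without wt line 2 (68) and 6 with the block (25). With no filter it was 12 of 14 (369) and with DESeq2 1 (84), and the other settings gave 0. At day 2.5 no filter gave 5 of 15 (87 genes in all) and every other setting 0. The sums at day 2.5 were 5256, 8528 and 13630 CPM in wt and 6302, 8098 and 5569 CPM in het. At day 3 they were 5227, 10058 and 10390 CPM in wt and 3993, 6378 and 6587 CPM in het, and 0 of 13 were called. With no filter 8 of 15 were called at day 3 (274 genes in all), with the block 6 of 13 (100) and without wt line 1 4 of 13 (93). The other settings gave 0. Lama1, a basement membrane laminin, averaged 2677 CPM (wt) and 1331 CPM (het) at day 2. Ttr and Afp, secreted products of visceral endoderm, had at most 22 and 12 counts in any library. At day 0 the marker sum was 2324 to 3882 CPM in the wt lines and 1345 to 1947 CPM in the het lines, a difference that was not tested. Gpc3 averaged 28.3 CPM in wt and 28.1 CPM in het on that day. The markers' part in the later Gpc3 difference was not tested. In bulk RNA, fewer cells of a type and less RNA per cell cannot be told apart.

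**Figure D4:**
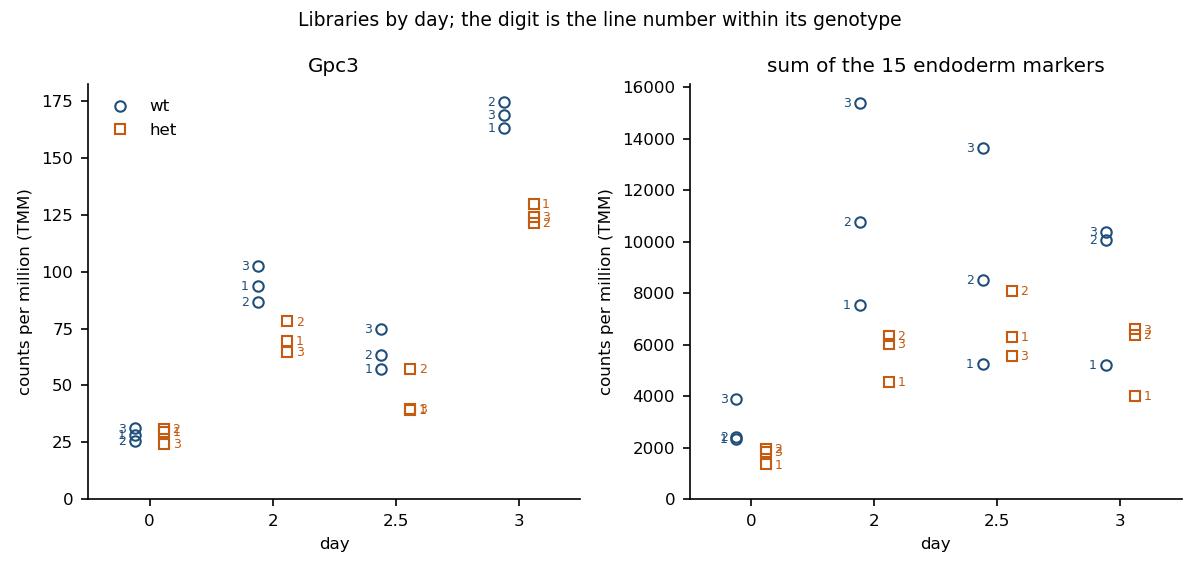
Gpc3 (left) and the sum of 15 endoderm markers (right) in CPM against day, with circles for wt, squares for het and the line number beside each symbol. Gpc3 starts at 28.3 and 28.1 CPM and has a lower het mean from day 2 on, with edgeR adjusted p of 0.13, 0.91 and 0.22 on these days and lines that met at day 2.5. The mean marker sum of the het lines at day 0 is 59.3% of wt, a difference that was not tested.

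Gpc4 differed in the other direction on successive days. At day 0 every het line was under every wt line (16.2 to 18.8 against 20.4 to 23.2 CPM) and at day 2 just over (14.8 to 16.9 against 10.2 to 14.6 CPM), as at day 2.5 (15.6 to 16.2 against 12.7 to 15.4 CPM). These log2 differences were -0.32 ± 0.14 (adjusted p = 0.42), 0.31 ± 0.20 (adjusted p = 0.66) and 0.19 ± 0.16 (adjusted p = 0.92), and 0.06 ± 0.18 at day 3. Sdc1 was higher in the 3 het lines at day 3 (69.8 to 70.5 against 57.0 to 62.5 CPM), by a log2 of 0.24 ± 0.09 (adjusted p = 0.46).

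For the remaining members the intervals bound what the data allow. The 95% interval of the log2 difference at day 3 was -0.05 to 0.71 for Gpc1, -0.25 to 0.50 for Gpc2, -0.74 to 0.07 for Gpc6, -0.05 to 0.92 for Sdc2, -0.54 to 0.45 for Sdc3 and -0.89 to 0.21 for Sdc4. At day 0 the interval of Gpc6, with 2 to 38 counts, was -2.04 to 1.71, and at day 2 that of Sdc3, with het line 2 at 15 counts, was -1.65 to 0.39.

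**Figure D5:**
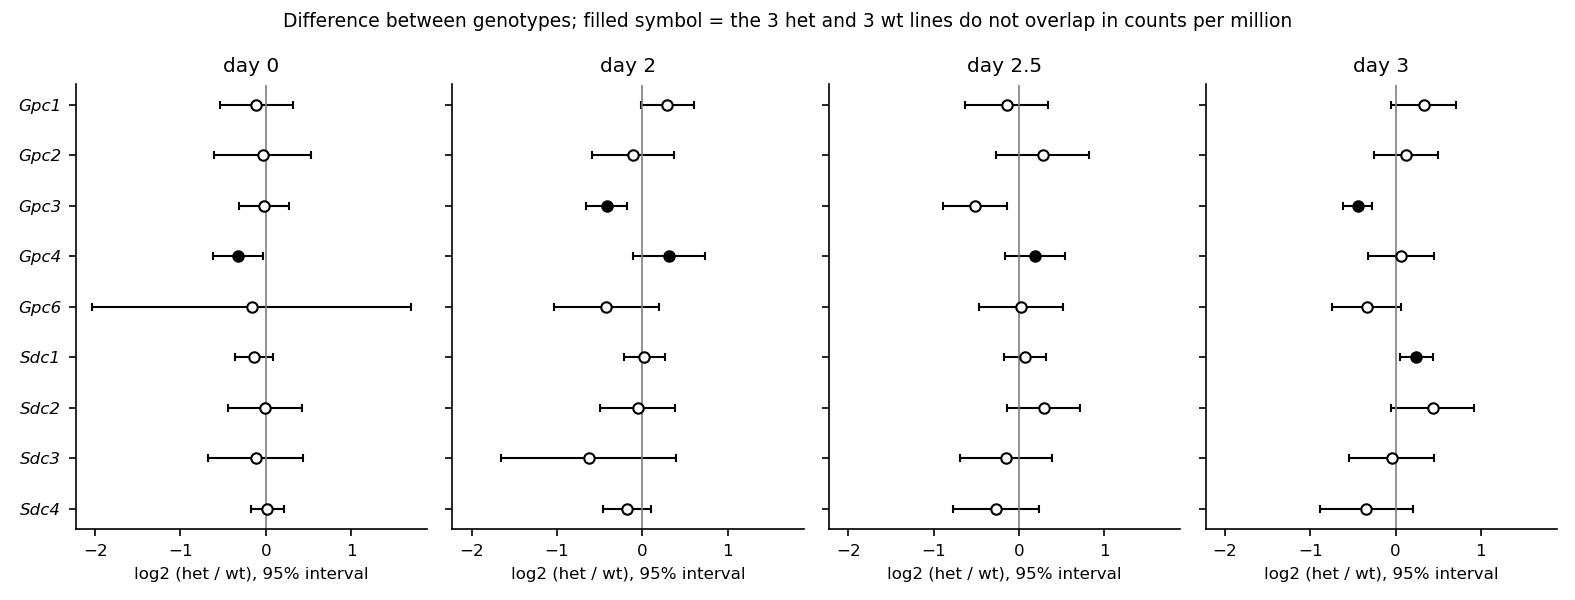
Log2 difference of het from wt on each day for the 9 members tested, with 95% intervals, filled where the 3 het and 3 wt lines did not overlap in CPM. Gpc3 lies left of 0 at day 2 (-0.42), day 2.5 (-0.52) and day 3 (-0.44), no member passed the adjusted threshold, and the intervals of the low genes are wide.

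The interaction of genotype with each step, which tests whether the step itself differed, called 0 of 10 members at the first step, 0 of 9 at the second and 0 of 9 at the third, where 0% of 16387, 16569 and 16486 genes were called by edgeR. At an unadjusted p under 0.05 it gave 2, 0 and 0 members, against 6.31%, 5.13% and 3.85% of all genes, and DESeq2 called 0 members at each step, against 0.0366%, 0% and 0%. Both fell at day 2 against day 0, where the Gpc4 step was higher in het by a log2 of 0.63 ± 0.24 (edgeR adjusted p = 0.75) and the Gpc3 step lower, at a log2 of -0.39 ± 0.17 (edgeR adjusted p = 0.78). Steps called in a genotype but not in the other (Gpc1 and Gpc4 at day 2, for example) were thus not shown to differ between genotypes.

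Of 41 genes that build, carry, edit and release heparan sulfate, in 6 lists, 20 of the 33 tested were called in wt by day 2 (12 higher, 8 lower), 11 of 35 by day 2.5 (8 higher, 3 lower) and 5 of 34 by day 3 (4 higher, 1 lower), where 44.3%, 29.1% and 19.1% of all genes were called. In het the counts were 27 of 32 (17 higher, 10 lower), 13 of 33 (9 higher, 4 lower) and 8 of 34, all higher, against 56.1%, 44.7% and 29.8% of all genes. The counts of the later steps were thus near or below the background in both genotypes. Between genotypes 0, 2, 0 and 0 were called on the 4 days, the 2 among 32 tested at day 2, where 0.551% of all genes were called. Values follow for genes that were called, not for every call.

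Chain start, the building of the linker that joins sugar to core protein, was mixed. By day 2, 4 of 6 genes were called in wt and 5 of 6 in het, where 44.3% and 56.1% of all genes were. Xylt1, which adds the first xylose, rose from 8.16 ± 0.564 to 16.2 ± 1.80 CPM in wt (SD, n = 3) at day 2 (log2 change 1.00 ± 0.21, adjusted p = 0.0016) and was at 7.92 ± 2.47 CPM again at day 2.5 (-1.04 ± 0.26, adjusted p = 0.0089, or 0.075 without wt line 2). B3galt6, a linker galactosyltransferase, fell from 9.72 to 3.88 CPM by day 2 in wt (adjusted p = 0.0072) and from 8.68 to 2.81 CPM in het (adjusted p = 0.00031). Of the 5 genes of chain polymerisation, 2 were called in wt and 3 in het by day 2, all higher and near the same background. Ext2, a subunit of the polymerase, went from 30.5 to 46.2 CPM in wt (adjusted p = 0.0045). Extl2, a related transferase, went from 7.88 to 13.9 CPM in wt (log2 change 0.82 ± 0.28, adjusted p = 0.025, not called without wt line 1 or wt line 3) and from 8.94 to 13.2 CPM in het (0.57 ± 0.20, adjusted p = 0.023, not called without any of the 3 lines).

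Hs6st1 and Hs6st2 add sulfate at the 6-O position of the chain. Hs6st1 averaged 102 ± 4.75 CPM in wt at day 0, 48.9 ± 7.12 CPM at day 2 and 32.1 ± 5.33 CPM at day 2.5 (SD, n = 3), with a log2 change of -1.06 ± 0.13 at the first step (adjusted p = 1.5e-05). Hs6st2 averaged 11.4 ± 4.21 CPM at day 2 and 38.3 ± 5.47 CPM at day 2.5 (1.74 ± 0.24, adjusted p = 0.00022). In het the same changes were -1.05 ± 0.11 and 1.39 ± 0.15. At day 3 Hs6st1 was at 43.5 CPM in wt and 42.2 CPM in het, and Hs6st2 at 29.8 and 37.5 CPM. Hs3st3b1, a 3-O sulfotransferase, fell from 9.36 to 4.14 CPM in wt by day 2 (-1.17 ± 0.31, adjusted p = 0.0073, or 0.17 without wt line 3). Hs2st1, the 2-O sulfotransferase, rose at the last step from 65.5 to 91.6 CPM in wt (0.49 ± 0.13, adjusted p = 0.026, not called without wt line 2 or wt line 3) and from 61.7 to 85.5 CPM in het (0.45 ± 0.09, adjusted p = 0.0037). Ndst2, an N-deacetylase and N-sulfotransferase, rose in het from 5.11 to 10.8 CPM by day 2 (1.08 ± 0.26, adjusted p = 0.0020). Hs3st1, which adds the rare 3-O sulfate, was called lower in het at day 2 (10.6 against 23.2 CPM, log2 difference -1.13 ± 0.24, adjusted p = 0.046), a call lost without any of 5 libraries (wt lines 2 and 3 and all 3 het lines, adjusted p = 0.089 to 0.32) and in a fit of all 24 libraries (adjusted p = 0.16).

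Among release and editing genes, Notum, an enzyme that takes the lipid off Wnt, averaged 8.21 CPM in wt at day 0, 0.688 CPM at day 2, 15.2 CPM at day 2.5 and 17.0 CPM at day 3. Its log2 change was -3.55 ± 0.40 at the first step (adjusted p = 8.7e-06) and 4.44 ± 0.37 at the second (adjusted p = 3.8e-06). In het it averaged 8.02, 0.142, 15.1 and 13.5 CPM, with 0 to 6 counts per library at day 2. Sulf2, an extracellular 6-O sulfatase, rose at the last step from 132 to 166 CPM in wt (0.34 ± 0.11, adjusted p = 0.049, not called without wt line 2 or wt line 3 or with no filter beyond 1 count) and from 112 to 144 CPM in het (0.33 ± 0.08, adjusted p = 0.012, not called without het line 1 or het line 2). Mmp14, a protease that sheds syndecans, rose from 11.9 to 22.6 CPM in wt (adjusted p = 0.0038) and from 10.2 to 23.1 CPM in het (adjusted p = 0.00023) after Wnt activation. By day 3 it fell in wt to 14.0 CPM (-0.68 ± 0.18, adjusted p = 0.026, or 0.17 without wt line 2 and 0.10 without wt line 3). Hpse, the heparanase that cleaves the chain, went from 2.28 to 5.27 CPM in wt by day 2 (1.23 ± 0.43, adjusted p = 0.030, not called without any of the 3 lines).

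Of the other core proteins that carry heparan sulfate or like chains, Tgfbr3 (betaglycan, a TGF-β co-receptor) rose from 4.399 to 34.4 CPM in wt by day 2 (adjusted p = 5.5e-07) and from 3.69 to 20.3 CPM in het (adjusted p = 1.3e-07). Col18a1, a basement membrane collagen, fell in wt from 414 CPM at day 0 to 219 CPM at day 2 and 132 CPM at day 2.5, and its second fall (log2 change -0.73 ± 0.19, adjusted p = 0.013) was not called without wt line 2 (-0.56, adjusted p = 0.18) or wt line 3 (-0.58, adjusted p = 0.085). In het Col18a1 fell from 266 to 128 CPM at day 2.5 (-1.09 ± 0.12, adjusted p = 8.8e-06) and rose to 218 CPM by day 3 (0.75 ± 0.13, adjusted p = 0.0016). Agrn (agrin) rose at the last step from 147 to 261 CPM in wt (adjusted p = 0.0024, or 0.090 without wt line 2) and from 144 to 236 CPM in het (adjusted p = 0.0011). Srgn (serglycin, an intracellular core protein) was called lower in het at day 2, at 45.7 against 91.0 CPM (-1.001 ± 0.18, adjusted p = 0.017), a call lost without wt line 3 or any het line (adjusted p = 0.084 to 0.18) and in a fit of all 24 libraries (adjusted p = 0.19). The het mean of Srgn was 56.8%, 50.2%, 67.7% and 67.3% of the wt mean on the 4 days, and that of Hs3st1 57.7%, 45.8%, 74.6% and 74.99%, beside 59.3%, 50.2%, 72.8% and 66.1% for the endoderm sum, whose part in both was not tested. Sdcbp (syntenin), which binds the syndecan tail, rose by day 2 from 71.5 to 111 CPM in wt (adjusted p = 0.0012, or 0.051 without wt line 3) and from 74.3 to 111 CPM in het (adjusted p = 4.7e-05).

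Likeness of pattern was measured by Pearson's r of log2 CPM over the 24 libraries, searched over 12448 genes of which each averaged at least 50 counts and none was a member. The libraries share lines and days, so r is a description. The nearest genes were Plekha2 (0.968) and Cryz (0.963) for Gpc3, Nrcam (0.955) and Tnfrsf9 (0.953) for Gpc6, Tmbim1 (0.949) and Zyx (0.945) for Sdc1, and Arhgef25 (0.933) and Gm43720 (0.927) for Gpc2. The last of these overlaps Gpc2 and may hold the same reads. Dock5 (0.923) and Pik3cb (0.897) were nearest to Sdc4, Zdhhc2 (0.917) and Peli2 (0.916) to Sdc2, and Tmem28 (0.867) and Tmem246 (0.864) to Gpc1. Weaker matches were found for Sdc3, with Tctn2 (0.830) and Iqce (0.824), and for Gpc4, with Cpsf3 (0.781) and Dpysl3 (0.773).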

How the data were processed

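Poly(A) RNA of 24 libraries was sequenced as 75 bp single-end reads. According to the methods and the submitters' processing notes, the authors trimmed reads with Trim Galore 0.4.4, aligned them with HISAT2 2.0.5 to GRCm38.p6 and deposited raw read counts per gene made in SeqMonk. Strand use in counting and the kit used for each library are not given in the sources used here. Columns of group means and 2 smaller log2 RPKM tables were not used.

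Counts were tested in edgeR 4.0.16 (R 4.3.3) with TMM scaling, filterByExpr by group, the quasi-likelihood F test and Benjamini-Hochberg adjustment over all genes, each comparison fitted on its own libraries. There were 13 comparisons, namely het against wt on 4 days, 3 steps in each genotype and 3 interactions. DESeq2 1.42.0 was an alternative. Steps were tested on simulated counts, where 200 of 200 genes changed 4-fold were called among 15531 genes (wt, day 2.5 against day 2), with 4 other calls. The same held for het against wt at day 2 (200 of 200 among 15394, 10 other calls). Only 4-fold changes were simulated. These counts therefore do not measure the power to detect smaller changes, such as the member differences between genotypes.

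The members and lists were chosen with earlier results of these data known. From each heparan sulfate list and comparison, up to 2 genes qualified to be named by value (not all are given), those with the largest absolute log2 change among genes called without overlap of groups that averaged 50 counts or more in a group. Other genes in the text were chosen after their values were seen. Line numbers pair the days of a genotype because they mark the same cell line. Deviations of a line on successive days correlated at -0.05 to 0.21 over 18 pairs. Intervals are 95% and cover the spread between lines. Figures were drawn with matplotlib 3.10.9 (Python 3.11.15, pandas 2.3.3).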

Additional observations from a re-analysis of the deposited data

How the results depend on the processing

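The counts of members called moved by over 1.5 times in few settings. Between genotypes, 1 member (Gpc3) in place of 0 was called at day 2 and 1 at day 3 with no filter beyond 1 count and with DESeq2, and 0 to 1 at day 3 when a line was left out. In wt at day 2.5 against day 2, 1 was called with no filter and 0 to 3 with a line left out (2 with all lines). The ranges with a line left out were 0 to 4 in wt at day 3 against day 2.5 and 0 to 2 in het at day 2.5 against day 2. With the line number as a block, Sdc4 in wt at day 3 against day 2.5 was called and no other member's call changed.

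Calls over all genes moved more. With no filter, DESeq2, the block and a fit of all 24 libraries, they were 369, 84, 25 and 1 at day 0 between genotypes, where 0 were called, and lines left out gave 0 to 68 (68 without wt line 2 and 35 without wt line 1). Between genotypes the block paired wt and het lines of equal number. These lines are not linked, so the block's results between genotypes rest on an arbitrary pairing. At day 2 (85) no filter gave 384, DESeq2 234 and a fit of all libraries 23, and lines left out 0 to 211. At day 2.5 (0) these were 87, 3 and 1, with 0 to 3 when lines were left out, and at day 3 (1) 274, 116 and 15, with 100 under the block and 0 to 93 with lines left out. In wt the step to day 2 (6869) gave 4152 without line 3, that to day 2.5 (4519) gave 2249 without line 2 and 2545 without line 3, and that to day 3 (2923) gave 4687 with the block, 29 without line 2 and 988 without line 3. In het the step to day 3 (4710) gave 2386 to 3032 with a line left out. The interactions (0 each) gave 58, 33 and 23 with no filter, and the first gave 6 with DESeq2 and 2 with the block.

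Some member changes that were not called reversed sign, and the cause was not tested. Log2 values were 0.40 for Gpc6 (block, with the arbitrary pairing) and 0.00031 for Sdc2 (fit of all libraries) between genotypes at day 0. In het at day 2.5 against day 2 Gpc1 was 0.000397 with DESeq2 size factors, 0.065 with library totals, 0.00045 with DESeq2 and 0.0076 in a fit of all libraries, and Gpc4 was 0.037 with library totals. In het at day 3 against day 2.5 Sdc1 was 0.0172 with size factors, 0.0271 with library totals, 0.0268 with no filter, 0.0172 with DESeq2 and 0.01997 in a fit of all libraries. With a line left out, these changes spanned 0. In het against wt, day 0, the ranges were Gpc1 -0.33 to 0.11, Sdc4 -0.035 to 0.077, Gpc2 -0.18 to 0.16, Sdc2 -0.17 to 0.066, Gpc3 -0.10 to 0.0701 and Gpc6 -0.80 to 1.37. In het against wt, day 2, the ranges were Sdc1 -0.0089 to 0.061, Sdc2 -0.27 to 0.10 and Gpc2 -0.38 to 0.047. In het against wt, day 2.5, the ranges were Gpc1 -0.38 to 0.21, Gpc6 -0.13 to 0.20 and Sdc4 -0.53 to 0.0055. In het against wt, day 3, the ranges were Sdc3 -0.17 to 0.059 and Gpc4 -0.10 to 0.27. In wt, day 2 against day 0, the ranges were Gpc1 -0.047 to 0.44. In wt, day 2.5 against day 2, the ranges were Sdc4 -0.56 to 0.0079 and Gpc4 -0.042 to 0.22. In wt, day 3 against day 2.5, the ranges were Sdc3 -0.0016 to 0.27. In het, day 2.5 against day 2, the ranges were Gpc1 -0.21 to 0.13, Sdc2 -0.35 to 0.041 and Gpc2 -0.55 to 0.16. In het, day 3 against day 2.5, the ranges were Sdc1 -0.044 to 0.059. In the interaction for day 2 against day 0, the ranges were Gpc2 -0.47 to 0.10, Gpc6 -1.56 to 0.27 and Sdc2 -0.35 to 0.13. In the interaction for day 2.5 against day 2, the ranges were Sdc1 -0.072 to 0.15, Sdc4 -0.42 to 0.14 and Gpc4 -0.25 to 0.00053. In the interaction for day 3 against day 2.5, the ranges were Gpc4 -0.26 to 0.018, Sdc4 -0.34 to 0.17, Gpc3 -0.044 to 0.31, Gpc2 -0.35 to 0.093 and Sdc2 -0.12 to 0.32.

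Depth limited Gpc5 (at most 14 counts), Gpc6 at day 0 and Sdc3. Among all the log2 values of members and named genes under the alternatives, 1616 kept direction and call, 93 lost the call, 25 gained it and 66 reversed.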
